A study of Solanum tuberosum with 12 samples.

Results

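The *StRIK*-RNAi lines 12 and 47 are independent potato transformants that carry the same hairpin and kept similar *StRIK* transcript levels, so the comparison asks which periderm transcripts differed between these lines beyond silencing. The 3 libraries labelled line 12 and the 3 labelled line 47 were compared, which is 6 of the 12 libraries of the series. The others were 3 Wild type libraries and 3 of line 9, another transformant with the same hairpin. All plants were *Solanum tuberosum* cultivar Désirée grown in soil with 12 h of light a day, and the periderm, labelled tuber skin, was taken from their tubers. No other treatment was applied. Each line descends from 1 transformation event, so its 3 libraries share that event and the p-values do not extend to transformants in general.

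Periderm is the protective tissue that replaces the epidermis of the tuber. Its outer cells, the phellem, deposit suberin in their walls and die, and they are renewed by the meristematic phellogen. RIK is a protein with K-homology domains, a fold that binds RNA, and in maize it was found as a partner of the leaf development protein ROUGH SHEATH2. In hairpin RNAi a double-stranded transcript is cut into short RNAs that direct the cleavage of matching mRNA, and the strength of silencing differs between transformants. Insertion of the transgene at different places, and changes that arise in tissue culture, are also known to differ between transformants. No table used here pairs suberin genes with these transcript identifiers, so the tissue label was not checked against them.

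The files hold effective counts, which are estimated counts per transcript corrected by the authors' quantification tool for fragment length and bias. Total effective counts were between 18947964 and 20523590 in line 12 and between 19372874 and 21585122 in line 47. Values below are normalized effective counts, scaled by TMM to a mean effective library size of 19870027. A file tag, L6 or L7, whose meaning the sources used here do not give, was L7 for line 12 and for replicate 1 of line 47 and L6 for line 47 replicates 2 and 3. Replicate 1 of line 47 was therefore also compared with line 12 alone. The tag was L6 for the Wild type and L7 for line 9.

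The hairpin was built on a fragment of the *StRIK* coding sequence that includes at least part of exons 8, 9 and 10, and the same fragment is present in both lines. The sites of the study's quantitative PCR primers for exons 8 and 9 are shown, in the sense of the gene, to identify the silenced gene. They were not placed relative to the ends of the fragment. The capitals mark the primer sites and the lower-case letters are 15 bases on either side, and positions are counted from the A of the start codon in the study's genomic *StRIK* sequence. The exon 8 site begins at position 3618 and the exon 9 site at position 3856.
StRIK exon 8: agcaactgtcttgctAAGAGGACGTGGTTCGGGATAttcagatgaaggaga
StRIK exon 9: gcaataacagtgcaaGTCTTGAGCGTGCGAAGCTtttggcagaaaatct

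The pair of lines was picked for similar *StRIK* levels, so these levels are given as a description and without a test. The 3 isoforms that match the hairpin fragment summed to 50.7, 42.2 and 37.1 TMM CPM, the counts scaled to a fixed library size, in line 12 replicates 1, 2 and 3. In line 47 they summed to 34.9, 49.9 and 49.2 CPM. The values of the lines were interleaved, with the lowest library in line 47 and the highest in line 12. The mean of line 47 was 44.7 ± 8.45 CPM and that of line 12 was 43.3 ± 6.86 CPM (SD, n = 3 each), so line 47 had 103% of the level of line 12. In the Wild type the sum was 85.0 ± 3.15 CPM (SD, n = 3), so line 12 had 51% and line 47 had 52.6% of that level.

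The isoforms were also interleaved one by one. The representative isoform PGSC0003DMT400064730 had 312, 232 and 223 normalized effective counts in line 12 and 223, 281 and 330 in line 47. Its log2 fold change (log2FC), given here and below as line 47 over line 12, was 0.12 (95% interval -0.30 to 0.54, edgeR quasi-likelihood fit). The interval was -0.51 to 0.55 for PGSC0003DMT400064729 and -0.43 to 0.43 for PGSC0003DMT400064731. The isoform outside the hairpin fragment, PGSC0003DMT400064735, had an interval of -0.44 to 0.44. With replicate 1 of line 47 alone, the log2FC was -0.46 (-1.17 to 0.24) for PGSC0003DMT400064729 and -0.20 (-0.78 to 0.38) for PGSC0003DMT400064730. Reads shared by isoforms are divided among them by the quantification tool.

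**Figure D1:**
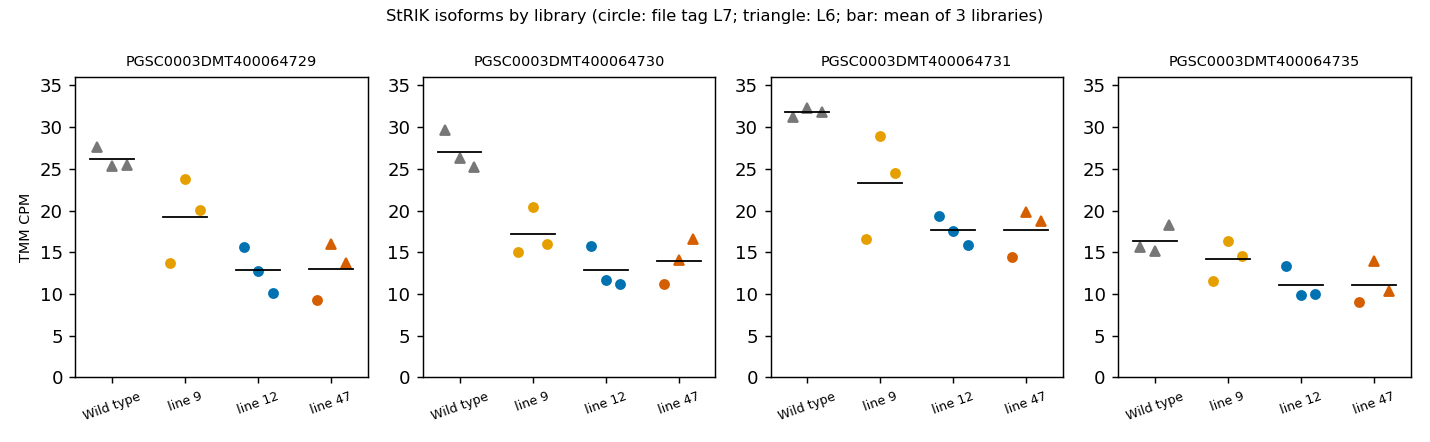
TMM CPM of the 4 StRIK isoforms (1 panel each) in each library of the Wild type and of lines 9, 12 and 47, with circles for file tag L7, triangles for L6 and a bar at the mean of 3 libraries. Points of line 12 and line 47 overlap in all 4 panels, and for PGSC0003DMT400064730 they lie between 11.2 and 16.6 CPM.

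Across the transcriptome, 8 of 36651 tested transcripts differed between the lines (0.0218%, edgeR quasi-likelihood test, Benjamini-Hochberg adjusted p under 0.05). Of these, 5 were upregulated in line 47 (0.0136% of those tested) and 3 were downregulated (0.00819%). None of the 8 has a name in the tables used here, so they are given by identifier, and those outside the naming rule were added after their values were seen. At an unadjusted p under 0.05 there were 2764 transcripts (7.54%). All 3 libraries of line 47 were above all 3 of line 12 for 2980 transcripts (8.13%) and below them for 3204 (8.74%). The median log2FC of all tested transcripts was 0.01, and the 95% interval lay between -1 and 1 for 20552 of them (56.1%).

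The count of differing transcripts depended on the model. DESeq2 called 168, of which 61 were higher and 107 lower in line 47, and it included all 8. Fitting the 6 libraries of these lines without the Wild type and line 9 gave 36, of which 11 were higher. With line 47 replicate 1 left out there were 39, and with line 12 replicate 3 left out there were 5.

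**Figure D2:**
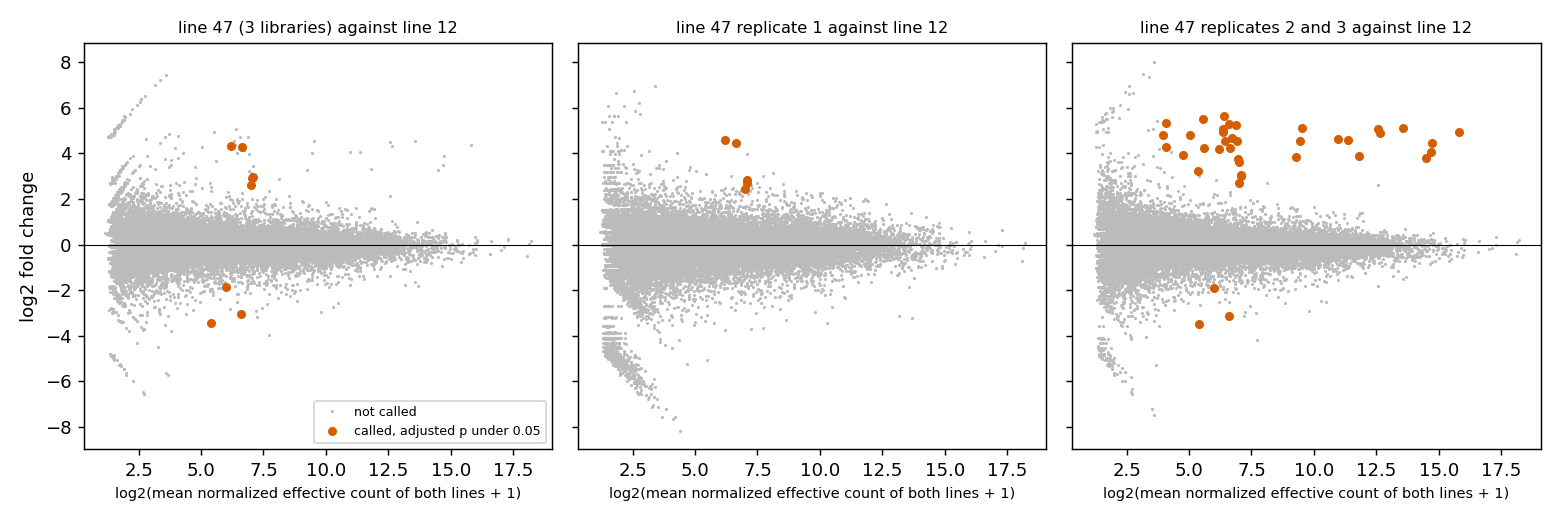
log2 fold change against the log2 mean normalized effective count of both lines plus 1, for all 36651 tested transcripts, with line 47, its replicate 1 and its replicates 2 and 3 each set against line 12. Orange points are called at an adjusted p under 0.05 and number 8, 5 and 39 in the 3 panels, with 3 below zero in the first and the last panel.

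Among the 8, the largest fold changes were those of PGSC0003DMT400024248 and PGSC0003DMT400024249, which have consecutive identifiers. PGSC0003DMT400024248 had 8.37, 4.82 and 6.66 normalized effective counts in line 12 and 165, 132 and 121.8 in line 47. No library of the Wild type or line 9 exceeded 16.1, so line 47 alone was high. The log2FC was 4.33 ± 0.41 (SE), a 20.1-fold higher level in line 47, with an adjusted p of 0.00144 in edgeR's test. PGSC0003DMT400024249 had 17.1, 4.56 and 6.29 in line 12 and 210, 176 and 179 in line 47. Its log2FC was 4.30 ± 0.45 (SE, edgeR adjusted p = 0.00358), and without line 12 replicate 3 the adjusted p was 0.0577. The Wild type (mean 8.34) and line 9 (mean 9.77) stood at the level of line 12.

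A second pair with consecutive identifiers was also high in line 47 alone. PGSC0003DMT400003521 had 28.6, 35.9 and 42.5 normalized effective counts in line 12 against 192, 236 and 235 in line 47. PGSC0003DMT400003522 had 27.9, 29.7 and 34.2 against 219, 281 and 206. The groups were far apart in both, and the highest library of the Wild type or line 9 reached 69.1 in each. The log2FC was 2.62 ± 0.23 (SE, edgeR adjusted p = 0.000856) for PGSC0003DMT400003521 and 2.94 ± 0.25 (adjusted p = 0.000786) for PGSC0003DMT400003522.

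PGSC0003DMT400096877 separated the lines in a different way, since line 9 was high as well. Line 12 had 33.8, 24.2 and 32.9 normalized effective counts and line 47 had 200, 310 and 203. Line 9 had 283, 256 and 255, whereas the Wild type had 31.1, 42.5 and 28.6. The log2FC of line 47 over line 12 was 2.96 ± 0.23 (SE, edgeR adjusted p = 0.000555). The call of PGSC0003DMT400096877 was kept with any 1 library of lines 12 and 47 left out. So were the calls of PGSC0003DMT400024248, PGSC0003DMT400003521, PGSC0003DMT400003522 and PGSC0003DMT400032741.

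The third pair of consecutive identifiers was high in line 12. PGSC0003DMT400032741 had 190, 176 and 151 normalized effective counts in line 12 and 23.3, 24.4 and 15.8 in line 47. Its level in line 47 was near that of the Wild type (mean 20.1) and line 9 (mean 25.9). The log2FC was -3.03 ± 0.24 (SE, edgeR adjusted p = 0.000555), which is an 8.19-fold higher level in line 12. PGSC0003DMT400032740 had 102, 58.1 and 64.7 in line 12 and 7.21, 5.48 and 7.79 in line 47. Its log2FC was -3.45 ± 0.43 (SE, edgeR adjusted p = 0.0173). This call was lost, with adjusted p up to 0.192, without line 12 replicate 1 or 3 or without line 47 replicate 2 or 3.

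PGSC0003DMT400071057 was the only called transcript for which every library of both lines lay outside the Wild type range. It had 85.2, 110 and 102 normalized effective counts in line 12 and 28.6, 30.2 and 22.1 in line 47. The Wild type had 43.8, 42.2 and 60.5, so line 12 lay above it and line 47 below it. Line 9 had 75.6, 83.1 and 52, with a mean of 70.2 against 48.8 in the Wild type and 99.2 in line 12. The log2FC between lines 12 and 47 was -1.86 ± 0.24 (SE, edgeR adjusted p = 0.0232). Neither line was called against the Wild type for it (edgeR adjusted p = 0.178 for line 12 and 0.496 for line 47, in comparisons that called 0.06% and 0.0791% of transcripts). Its call between the lines was lost on leaving out any single library of lines 12 and 47 except line 47 replicate 1, with adjusted p up to 0.253.

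**Figure D3:**
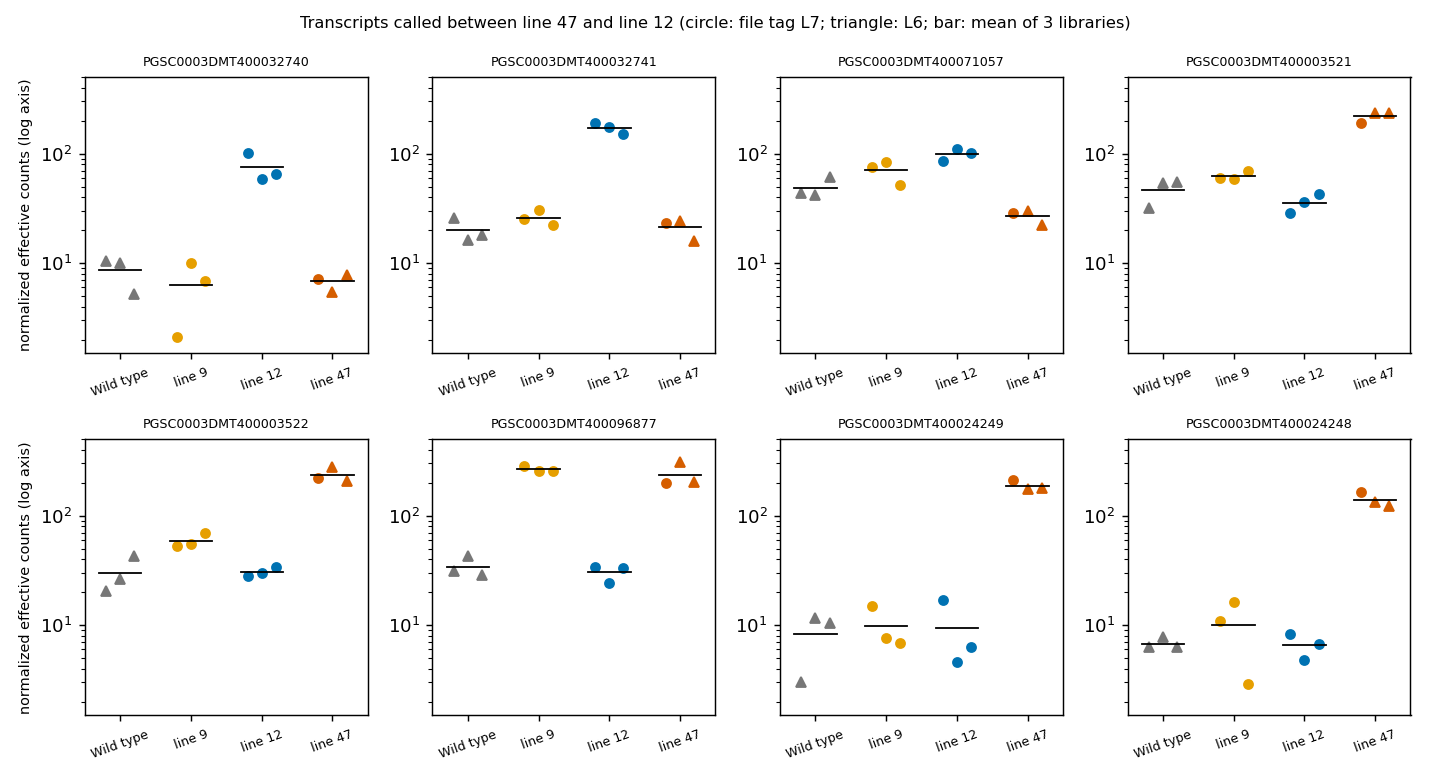
Normalized effective counts (log axis) of the 8 transcripts called between line 47 and line 12, by library and group, with circles for file tag L7, triangles for L6 and a bar at the mean of 3 libraries. In 4 panels line 47 alone is high, in 2 line 12 alone is high, PGSC0003DMT400096877 is high in lines 9 and 47, and PGSC0003DMT400071057 is highest in line 12 and lowest in line 47.

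Replicate 1 of line 47, the library with the same file tag as line 12, gave 5 called transcripts against line 12 (0.0136% of 36651). They were the same 5 that were upregulated in the comparison of all libraries, with a log2FC of 2.42 for PGSC0003DMT400003521, 2.84 for PGSC0003DMT400003522 and 2.72 for PGSC0003DMT400096877. The log2FC was 4.58 for PGSC0003DMT400024248 and 4.46 for PGSC0003DMT400024249, and the edgeR adjusted p was between 0.0238 and 0.0379 for the 5. No transcript was called lower in this library, where edgeR found 1030 lower at an unadjusted p under 0.05, DESeq2 called 23 lower and limma-voom called 0. The 3 transcripts that were lower with all libraries had similar fold changes here, with a log2FC of -3.36 for PGSC0003DMT400032740, -2.86 for PGSC0003DMT400032741 and -1.78 for PGSC0003DMT400071057. Their adjusted p values were 0.894, 0.0936 and 0.894. A single library on 1 side is taken to vary as the other groups do, and the 5 calls fell to 0 when any library of line 12 was left out and to 1 when line 47 replicate 2 or 3 was left out of the fit.

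Replicates 2 and 3 of line 47, tagged L6, differed from line 12 in 39 transcripts (0.106%), of which 36 were upregulated (0.0982%) and 3 downregulated (0.00819%). DESeq2 called 100, of which 57 were higher and 43 lower. All 8 transcripts described above were among them. The further 31 were all higher, with log2FC between 3.21 and 5.62, and in all 31 both libraries were above the 10 other libraries of the series. In 28 of the 31, replicate 1 of line 47 did not exceed the highest library of line 12. The 31 are by definition those that edgeR did not call with all 3 libraries of line 47, which favours a low replicate 1. Their edgeR adjusted p in that comparison was between 0.221 and 0.424, and limma-voom called 0 and DESeq2 26 of them.

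Of these 31 transcripts, 10 have a name in the tables used here. They comprise all 9 of a group called rRNA-like here and the large chain of ribulose bisphosphate carboxylase (Rubisco), which is encoded in the chloroplast and fixes carbon dioxide. The rRNA-like group is made up of 4 transcripts named rRNA intron-encoded homing endonuclease, 1 each named senescence-associated protein and cytochrome P450 like_TBP, and 3 of unknown function. It was put together from these names and from counts of the same libraries. Names of this kind are known to be given in plant annotations to reading frames within ribosomal RNA genes, whose products form the ribosome and make up most cellular RNA.

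The senescence-associated protein PGSC0003DMT400080875 had 5500, 2516 and 2273 normalized effective counts in line 12. In line 47 it had 3083 in replicate 1 and 91316 and 59435 in replicates 2 and 3. Replicate 1 thus lay within line 12, and the other libraries of the line were far above every library of the series. The log2FC of replicates 2 and 3 over line 12 was 4.46 ± 0.43 (SE, edgeR adjusted p = 0.000914). With all libraries of line 47 it was 3.90 ± 0.86 (adjusted p = 0.285).

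The homing endonuclease transcript PGSC0003DMT400094705 had 721, 400 and 411 in line 12 against 435, 18513 and 16190 in line 47, again with replicate 1 at the level of line 12. Its log2FC was 5.08 ± 0.32 (SE, edgeR adjusted p = 7.28e-05) for replicates 2 and 3 over line 12. Over replicate 1 of the same line it was 5.32 ± 0.52 (adjusted p = 0.00771). The log2FC of the 9 rRNA-like transcripts in replicates 2 and 3 over line 12 was between 3.80 and 5.11. For PGSC0003DMT400096705 this call was lost without line 12 replicate 2 (adjusted p = 0.0544).

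The 9 rRNA-like transcripts took 1.70% and 1.27% of all effective counts in line 47 replicates 2 and 3. They took 0.0595% in replicate 1 and 0.121%, 0.0581% and 0.0451% in the libraries of line 12. The Wild type libraries, which are also tagged L6, had between 0.0476% and 0.0758%. Line 9, tagged L7, had 0.143%, 0.169% and 0.109%. The part of the tag in these shares was not tested. The largest of the 21 unnamed transcripts among the 31, PGSC0003DMT400049004, is next in number to the rRNA-like PGSC0003DMT400049003 and was singled out after its values were seen. It took 1.01% and 0.628% of effective counts in these 2 libraries and between 0.0169% and 0.0722% in the other 10.

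The Rubisco large chain PGSC0003DMT400083063 had 4.61, 1.28 and 2.66 normalized effective counts in line 12 and 2.53, 125 and 137 in line 47. Line 9 was uneven as well, with 26, 44.3 and 3.53. The log2FC of line 47 replicates 2 and 3 over line 12 was 5.53 ± 0.79 (SE, edgeR adjusted p = 0.0257). That call was lost with any 1 library of line 12, or replicate 2 or 3 of line 47, left out, with adjusted p up to 0.218. The second transcript grouped here as chloroplast-encoded, ORF107c (PGSC0003DMT400085260), had 0 in all libraries of line 12 and 1.59, 26.4 and 19.1 in line 47. It was called by DESeq2 with all libraries and with replicates 2 and 3, by limma-voom with replicates 2 and 3 only, and by edgeR in neither comparison.

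A run of unnamed transcripts with consecutive identifiers showed the same division of line 47 and were likewise chosen after their values were seen. PGSC0003DMT400003772 had 17.2, 10.8 and 14.9 normalized effective counts in line 12 and 16.4, 320 and 348 in line 47. PGSC0003DMT400003770 had 20.6, 322 and 319 in line 47, and PGSC0003DMT400003771 had 31.6, 289 and 356. In all of them replicate 1 was at the level of line 12, between 10.8 and 32.4. The edgeR adjusted p of replicates 2 and 3 over line 12 was 5.42e-05 for PGSC0003DMT400003772.

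Within line 47, replicates 2 and 3 differed from replicate 1 in 11 transcripts (0.03%), all higher, and these 11 were all among the 39. They comprised 6 of the rRNA-like transcripts and 5 unnamed ones, which included the 3 with consecutive identifiers. The count was 3 without line 47 replicate 2, 4 without replicate 3 and 32 with DESeq2. None was lower, with 169 lower at an unadjusted p under 0.05 in edgeR's test, 1 called lower by DESeq2 and 0 by limma-voom. None of the 8 transcripts called between the lines was among the 11.

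**Figure D4:**
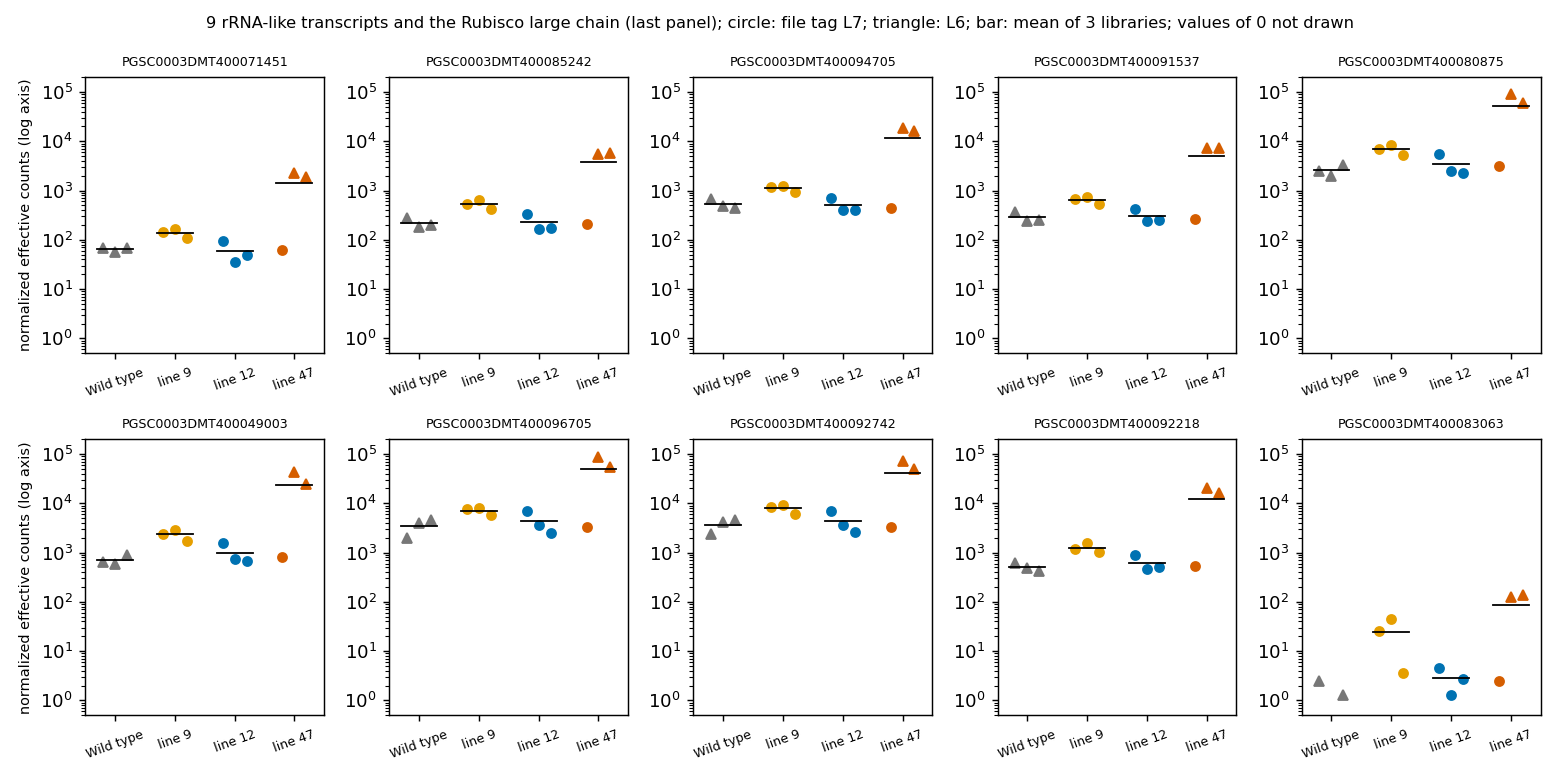
Normalized effective counts (log axis) of the 9 rRNA-like transcripts and the Rubisco large chain in each library, with circles for file tag L7, triangles for L6 and a bar at the mean of 3 libraries. In every panel the 2 triangles of line 47 lie above all other points, while its circle lies among the points of line 12 and the Wild type triangles stay low.

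The study named 109 transcripts that could be followed here: 101 that it listed as changed by silencing, 1 further *StRIK* isoform and 7 with short matches to the hairpin fragment. The 101 were listed from the RNAi and Wild type libraries of this series, including libraries of both lines, and are therefore not independent evidence on direction. Of the 109, 97 reached 10 counts over the 6 libraries, and the other 12 were too low in both lines to be tested. None of the 97 was called between the lines by edgeR or limma-voom. At an unadjusted p under 0.05 edgeR found 17 higher and 2 lower in line 47, which is 19.6% of the 97 next to 7.54% of all tested, and DESeq2 called 11 higher. Those 11 were the 9 rRNA-like transcripts, ORF107c and PGSC0003DMT400093030. The libraries of the lines did not overlap for 16 of the 97 (16.5%), next to 16.9% of all tested transcripts. The 17 included all 9 rRNA-like transcripts and both of those grouped here as chloroplast-encoded.

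In the group of RNA metabolism and splicing edgeR and limma-voom called 0 of 12 with all libraries, and DESeq2 called 4, all of them rRNA-like. The same 4 were those at an unadjusted p under 0.05 in edgeR's test (33.3%, next to 7.54% of all tested). Ribonuclease H enzymes cut RNA that is paired with DNA, and all 5 transcripts named RNase H family protein overlapped between the lines, with log2FC between 0.14 and 0.48 (median 0.28). PGSC0003DMT400073611, the most abundant, had 1175, 1090 and 1012 normalized effective counts in line 12 and 1168, 1298 and 1258 in line 47. PGSC0003DMT400063700 had 817, 710 and 633 against 744, 750 and 881, while the Wild type mean was 48.2. Its 95% interval was -0.59 to 0.86. Intervals were wider for the less abundant PGSC0003DMT400022247 (-0.26 to 1.21) and PGSC0003DMT400063698 (-0.78 to 1.72). The pre-mRNA splicing factor syf2 (PGSC0003DMT400027449) had a log2FC of -0.33 (interval -0.81 to 0.15), and the RNA binding protein PGSC0003DMT400006660 had 0.12 (-0.25 to 0.50). The RNA recognition motif-containing protein PGSC0003DMT400079124 was near 3 normalized effective counts, the value set here as the floor, with an interval of -3.01 to 1.94.

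Transposable elements are the mobile DNA of the genome. Of 6 transcripts related to them, 4 were tested and edgeR called 0, with 0 at an unadjusted p under 0.05, next to 7.54% of all tested. By DESeq2 and limma-voom 0 were called. The transposase PGSC0003DMT400039369 had 259, 284 and 305 normalized effective counts in line 12 and 301, 297 and 315 in line 47, with an interval of -0.27 to 0.48 for the log2FC. The retrotransposon protein PGSC0003DMT400041204 had 483, 463 and 417 against 443, 483 and 599. The transposase PGSC0003DMT400003803 had 124, 87.6 and 80.2 against 93.4, 83.2 and 88.1. The transposon MuDR transcript PGSC0003DMT400085583 had an interval of -1.80 to 1.14. The levels of these 4 overlapped between the lines. The untested TNP2 transcript PGSC0003DMT400046437 had 0, 6.02 and 1.56 in line 12 and 1.47, 0 and 0 in line 47. Its means were 2.53 and 0.489, and only line 12 replicate 2 was above the floor of 3.

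In the signaling group edgeR, limma-voom and DESeq2 called 0 of 12. At an unadjusted p under 0.05 edgeR found 2 of the 12 (16.7%, next to 7.54% of all tested). The lines did not overlap for 2 of the 12 (16.7%, next to 16.9% of all tested), which were 2 of the 3 transcripts named signal transducer. Their Arabidopsis match belongs to the NPH3 family, whose founding member acts in the bending of shoots towards light. PGSC0003DMT400047866 had 35.1, 48.3 and 60.7 normalized effective counts in line 12 and 85.9, 74.7 and 102 in line 47. Its log2FC was 0.88 (95% interval 0.36 to 1.40, unadjusted p = 0.003, edgeR adjusted p = 0.400). PGSC0003DMT400047867 had 24.7, 43.0 and 62.9 against 78.7, 67.3 and 75.8 (log2FC 0.78, adjusted p = 0.603). The third, PGSC0003DMT400047864, overlapped between the lines. The 5 transcripts of the transducin type, proteins with repeats that serve as a platform for other proteins, overlapped between the lines with log2FC between -0.47 and 0.04.

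Of the 12 stress transcripts edgeR and limma-voom called 0 with all libraries, and DESeq2 called 1, the senescence-associated protein described above. At an unadjusted p under 0.05 edgeR found 4 of the 12 (33.3%, next to 7.54% of all tested). The libraries of the lines did not overlap for 2 of the 12 (16.7%, next to 16.9% of all tested transcripts), a dehydrin and 11S globulin isoform 4. Dehydrins accumulate in plant cells that lose water. PGSC0003DMT400025812, the dehydrin, had 76361, 77308 and 71467 normalized effective counts in line 12 and 54285, 46464 and 63871 in line 47. Its log2FC was -0.45 (95% interval -0.88 to -0.03, edgeR adjusted p = 0.639). The seed storage protein 11S globulin isoform 4 (PGSC0003DMT400026705) had 21.6, 13.5 and 15.9 against 29.1, 39.1 and 41.9 (log2FC 1.08, adjusted p = 0.623). The dehydration responsive element binding protein PGSC0003DMT400061541, a member of a family of transcription factors of the drought response, had 115, 34.6 and 80.6 against 79.1, 42.7 and 91.7. It varied more within each line than between them.

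In the proteolysis group edgeR, limma-voom and DESeq2 called 0 of 5, with 0 at an unadjusted p under 0.05, next to 7.54% of all tested. The transcripts PGSC0003DMT400026261 and PGSC0003DMT400026262, whose Arabidopsis match is of the Kunitz family of trypsin inhibitors, which block serine proteases, varied within both lines. PGSC0003DMT400026261 had 3811, 4617 and 6970 normalized effective counts in line 12 and 3760, 2918 and 2149 in line 47 (log2FC -0.80, 95% interval -1.72 to 0.12). Line 47 thus lay just below line 12, and this was the only 1 of the 5 without overlap (20%, next to 16.9% of all tested). PGSC0003DMT400026262 ranged from 2696 to 12200 in line 12 and from 3559 to 8316 in line 47.

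All 4 transcripts listed under phenylpropanoid metabolism and peroxidase overlapped between the lines. Phenylalanine ammonia-lyase opens the phenylpropanoid pathway, which supplies lignin and the phenolic part of suberin. Its transcript PGSC0003DMT400055489 had 74260, 48014 and 44741 normalized effective counts in line 12 and 49202, 65501 and 48127 in line 47. The other, PGSC0003DMT400049886, had 41810, 74363 and 90590 against 70361, 57280 and 36343, with an interval of -1.08 to 0.41 for the log2FC. The aldolase PGSC0003DMT400079161, an enzyme of the shikimate pathway that feeds it, had an interval of -0.35 to 1.05. The peroxidase PGSC0003DMT400012995 (log2FC 0.09, 95% interval -0.37 to 0.55) and the D12 oleate desaturase PGSC0003DMT400082017 of acyl lipid metabolism (0.13, -0.32 to 0.57) overlapped between the lines as well. Of the 12 transcripts of metabolism edgeR and limma-voom called 0 with all libraries, and DESeq2 called 1, the rRNA-like PGSC0003DMT400049003. At an unadjusted p under 0.05 edgeR found 1 of the 11 tested (9.09%, next to 7.54% of all tested). Of the 4 of acyl lipid metabolism all 3 tools called 0. In edgeR's test 0 were at an unadjusted p under 0.05, next to 7.54% of all tested. The lines did not overlap for 1 of the 4 (25%, next to 16.9% of all tested), the acetyl-coenzyme A carboxylase transcript PGSC0003DMT400042102. It had 8.12, 9.03 and 6.27 in line 12 and 14.8, 12.3 and 13.5 in line 47 (log2FC 0.72, 95% interval -0.47 to 1.91).

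A few of the 101 transcripts were at the floor of 3 normalized effective counts in one line and above it in every library of the other, and none of these was called by edgeR. PGSC0003DMT400093030, of unknown function, had 0 in all 3 libraries of line 12 and 15.4, 28.2 and 12.96 in line 47, which is at least 6.28-fold higher when a floor of 3 counts per library is used. It was also at 0 in the Wild type and line 9, so the transcript was detected in line 47 alone, replicate 1 included (edgeR adjusted p = 0.28, DESeq2 adjusted p = 0.00323). It therefore passed the count minimum only through line 47. PGSC0003DMT400046438, of unknown function, was at the floor in line 47 and had 3.55, 19.8 and 17.7 in line 12, at least 4.56-fold lower in line 47. The cytochrome P450 PGSC0003DMT400019561 was at least 2.46-fold lower in line 47. The arabinogalactan protein PGSC0003DMT400009661, of a family of wall glycoproteins, had 5.88, 0 and 0 in line 12 and between 14.2 and 56.1 in line 47. It was 0 in the Wild type and line 9 (edgeR adjusted p = 0.434). The study listed the 101 from RNAi libraries that included all 3 of line 47. Values of 0 in the Wild type beside high ones in line 47 are thus part of that choice.

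**Figure D5:**
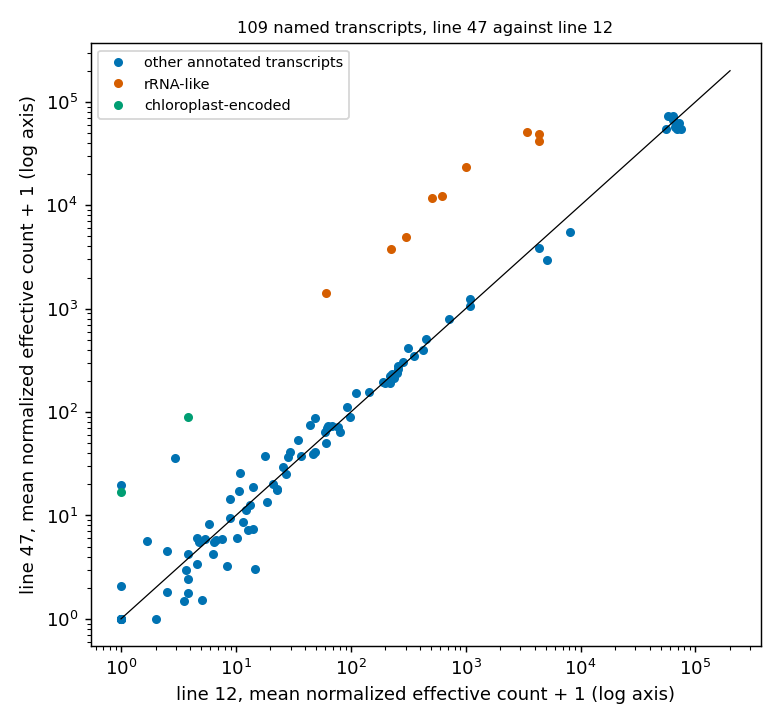
Mean normalized effective count plus 1 of the 109 named transcripts in line 47 against line 12 (both axes logarithmic, 3 libraries per line, line of equality drawn). The 9 rRNA-like transcripts and those grouped as chloroplast-encoded lie above the line of equality, and most other transcripts lie along it.

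Of the 7 transcripts with short matches to the hairpin fragment 6 were tested, and for all 6 the 95% interval of the log2FC lay between -1 and 1. The same held for 56.1% of all tested transcripts, and for 71.4% of those with a mean of 20 or more in either line. EMB1865 (PGSC0003DMT400014644) had 65.9, 61.3 and 58.6 normalized effective counts in line 12 and 69.7, 56.8 and 92.3 in line 47. The untested extensin PGSC0003DMT400030423 had 0 in line 12 and at most 2.35 in line 47. The lines did not overlap for 1 of the 6 (16.7%, next to 16.9% of all tested), the ATP binding protein PGSC0003DMT400042918. It had 117, 88.2 and 123.1 against 147, 154 and 154 (log2FC 0.47, edgeR adjusted p = 0.674).

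As a description of the libraries, Pearson correlations of log2 CPM over all tested transcripts were between 0.9728 and 0.9772 within line 47 and between 0.9415 and 0.9746 across the lines. Within line 12 they were 0.982 for replicates 2 and 3, and 0.9617 and 0.9564 for replicate 1 with these. Line 12 replicate 1 was thus farther from its own line than line 12 replicates 2 and 3 were from any library of line 47. The other pairs of lines gave call counts of a like order, with 12 transcripts between lines 9 and 12 (0.0327%) and 8 between lines 9 and 47 (0.0218%), and these comparisons share libraries with the one described here.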

How the data were processed

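Per the labels, RNA of tuber periderm was made into cDNA libraries with a TruSeq kit, and the study sequenced them on an Illumina instrument. The submitters' processing notes name FastQC 0.11.2, Bowtie2, eXpress 1.5.1 and Cufflinks. The files deposited by the authors hold effective counts, the estimated counts that eXpress gave for 54416 transcripts of the PGSC potato annotation, with no normalization between libraries. After rounding, a transcript entered the tests with a sum of 10 or more in the 6 libraries of lines 12 and 47. The main test was edgeR's quasi-likelihood test (edgeR 4.0.16 under R 4.3.3, TMM scaling), and p-values were adjusted by Benjamini-Hochberg with a threshold of 0.05. All 12 libraries in 4 groups shared 1 estimate of spread, and in a second fit line 47 was split into replicate 1 and replicates 2 and 3. Standard errors were derived from the log2FC and its F statistic, and the 95% intervals use the fit's degrees of freedom. *StRIK* sums are described without the planned exact permutation test, since the lines were picked for similar *StRIK* levels. The fits were also run on simulated counts that took their spread from the main fit and held no effect of the file tag. Such runs cannot check that spread or the part of the tag. Members and lists were chosen with earlier results of these data known. The naming rule took the *StRIK* isoforms, named transcripts that were called, the members of each list with the most counts, members at the floor in 1 line, and 2 unnamed transcripts in each direction. Names came from the study's supplementary tables, and the RefSeq table given holds none of these identifiers. Alternatives were RLE scaling, DESeq2 1.42.0, limma-voom (limma 3.58.1), other count minimums and removal of the rRNA-like and chloroplast transcripts. Others were only the 6 libraries, a replicate block, the file tag as a covariate and each library of lines 12 and 47 left out. Both L6 libraries of line 47 were left out after the data were seen. Depth limits precision for transcripts near 3 counts. Figures were drawn in Python 3.11.15.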

Additional observations from a re-analysis of the deposited data

How the results depend on the processing

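The 8 transcripts called between line 47 and line 12 stayed among those called with RLE scaling (8), limma-voom (10), no minimum count (9), filterByExpr (8) and without the rRNA-like and chloroplast transcripts (8). The count was 168 with DESeq2 and 36 with only the 6 libraries. Among the groups, only line 47 held both file tags. With the tag as a covariate, the fit therefore repeated the comparison of line 47 replicate 1 with line 12 and is no separate check. Leaving out both L6 libraries of line 47, a setting chosen after seeing the data, also left replicate 1 alone. Leaving out 1 library of lines 12 and 47 at a time gave 5 to 39 calls. Numbers of the replicates did not pair the libraries, since same-numbered libraries of the lines deviated with correlations of -0.351, -0.0809 and -0.117, and the replicate block gave 6. With line 47 replicate 1 alone the 5 calls became 30 with DESeq2, 0 to 1 with 1 library left out and 1 with both L6 libraries left out of the fit. With replicates 2 and 3 the 39 calls became 100 with DESeq2, and leaving out 1 library gave 32 to 39. Between replicates 2 and 3 and replicate 1 of line 47 the 11 calls became 32 with DESeq2, 18 with no minimum count and 4 without the rRNA-like and chloroplast transcripts, and 3 to 16 with 1 library left out. The ratio of *StRIK* in line 47 to line 12 was between 96.2% and 114% with 1 library left out, and 102% to 109% under the other settings. Over 128 refitted log2FC of the 8 called transcripts, 0 changed sign and 22 were no longer past the threshold. The causes of these changes were not tested. DESeq2 gave no adjusted p for 1434 transcripts of the first comparison, and these were not counted as called.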
